A study of Mus musculus with 8 samples.

Results

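The genes described here are 40 members of Toll-like receptor and NF-kB signalling, taken by name from the 15853 genes of the authors' deposited comparison of knockout with control macrophages. They were chosen as receptors, co-receptors, adaptors, kinases, NF-kB subunits and inhibitors, and all 40 were present and had an adjusted p. Mouse bone marrow was grown into macrophages over 7 days with L929-conditioned medium, a source of the growth factor M-CSF. Both groups were exposed for 24 h to insulin (10 nM), glucose (25 mM) and the saturated fatty acid palmitate (C16:0, 250 uM). The knockout group (4 libraries) was Mirc11fl/fl Mirc22fl/fl Lyz2Cre/Cre, and the control group (4 libraries) was Mirc11fl/fl Mirc22fl/fl Lyz2+/+. Both groups thus carried loxP-flanked alleles of the Mirc11 and Mirc22 clusters, the source of miRNA families 23, 27 and 24 (miR-23, miR-27, miR-24). Cre was present in the knockout alone, driven by Lyz2, a myeloid gene, and inserted at both copies of it, so the groups also differ in Cre and in lysozyme M. The libraries are not said to come from 1 animal each, so p-values reflect the spread among these libraries, part of which may be technical.

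Toll-like receptors bind conserved molecules of microbes. Tlr1, Tlr2, Tlr4 and Tlr6 encode receptors of the cell surface, which bind lipoproteins and lipopolysaccharide, while Tlr3, Tlr7, Tlr8, Tlr9 and Tlr13 encode receptors of endosomes, which bind nucleic acids. Ligand binding recruits adaptors (Myd88, Tirap, Ticam1, Ticam2), then IRAK kinases and TRAF ubiquitin ligases, and these activate the TAK1 kinase complex and the IKK complex. IKK marks the IkB inhibitors for destruction, which frees NF-kB dimers to enter the nucleus, while TBK1 and IKK-epsilon activate the transcription factor IRF3. In macrophages this pathway drives inflammatory cytokines, and several inhibitors of the pathway are themselves NF-kB targets. Changes of the pathway's activity occur largely in its proteins, which poly(A) RNA does not measure.

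The miRNA families of the floxed clusters act by pairing their seed, bases 2 to 8, with messenger RNAs. The mature sequences (RefSeq, GRCm38.p6) are shown because seed matches in the members are described further on, and the capitals mark the seed. The miR-27a and miR-27b sequences share 1 seed, miR-24 is made from both clusters, and mmu-miR-23b-3p is named only.
mmu-miR-23a-3p: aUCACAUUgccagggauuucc
mmu-miR-27a-3p: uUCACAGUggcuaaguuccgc
mmu-miR-27b-3p: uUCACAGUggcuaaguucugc
mmu-miR-24-3p: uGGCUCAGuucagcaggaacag

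Values per gene come from the authors' DESeq2 comparison, as a log2 fold change of knockout over control with its standard error (SE). A gene is called when its adjusted p is under 0.05. The implied group means given below were derived from the authors' mean normalized count and fold change, with equal group sizes. They carry no spread of their own, since values per library were not used. The sign of the comparison was read from Lyz2, the Cre-bearing gene, at a log2 fold change of -9.10 (SE 0.42, DESeq2 adjusted p = 6.25e-102, per the authors' deposited table). Lyz2 thus cannot also serve as a check of the labels, and loss of the miRNAs was not measured by these poly(A) libraries. All 12 macrophage markers looked up were analysed, with implied means summing to 1051006 normalized counts in knockout cells and 1255091 in control cells. Of these markers 1 was called higher and 6 lower (50%), with a median log2 fold change of -0.16.

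The members were mostly lower in knockout cells. Of the 40, 17 were called lower and 1 higher, so 18 were called, which is 45%. Among all 14619 tested genes 23.0% were called, 11.7% lower and 11.3% higher. The members are abundant genes, and among the 9121 tested genes with a mean normalized count of at least 500 the shares were 25.4% called, 17.1% lower and 8.38% higher. The log2 fold change was below 0 in 32 of the 40 members (80%). This was so for 50.7% of all tested genes and 60.5% of the abundant ones. Of the 32, Tlr4, Tlr13, Irak4 and Map3k7 turn above 0 under the other scaling described next. The median log2 fold change of the members was -0.16, against -0.0040 over all tested genes and -0.05 over the abundant ones. The changes were small: none of the 18 reached 2-fold, 1 reached 1.5-fold and 10 were under 1.25-fold.

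**Figure D1:**
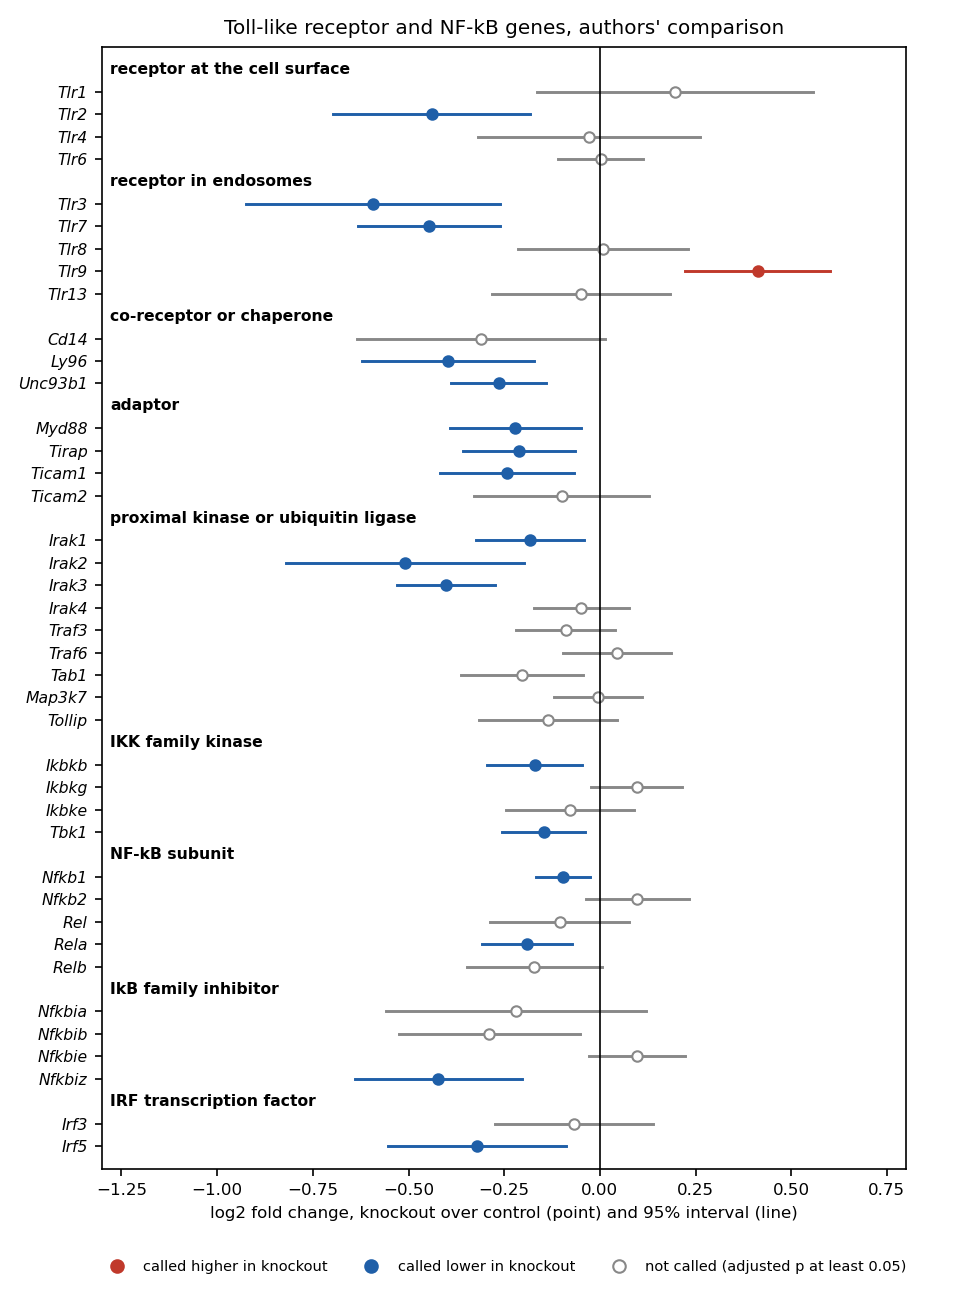
Log2 fold change of knockout over control (points, x axis) with its 95% interval (lines, SE times 1.96 to each side) for the 40 members, grouped by role. The 17 members called lower lie left of 0, Tlr9 is the 1 called higher, and open points mark the 22 that were not called.

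The number of these calls depends on the scaling of the libraries. With fold changes centred on the ratio of summed group means without Lyz2, a shift of -0.05 on the log2 scale, 8 members were called lower and Tlr9 higher. The 9 that lost their call were Myd88, Tirap, Ticam1, Irak1, Ikbkb, Tbk1, Nfkb1, Rela and Irf5. Over all genes that centring gave 2197 higher and 1046 lower calls (67.7% of calls higher), against 1651 and 1712 as deposited (49.1% higher). Its lower calls were 7.16% of tested genes, against 11.7% as deposited. The 8 members lower under either scaling were Tlr2, Tlr3, Tlr7, Ly96, Unc93b1, Irak2, Irak3 and Nfkbiz. With a t distribution of 6 degrees of freedom in place of the normal, Irak3 alone was called.

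Markers of stromal cells moved in the same comparison, and their part in the result was not tested. Of 17 stromal markers 16 were analysed, and 15 of them were called higher and 0 lower, all 16 having an unadjusted p under 0.05 by DESeq2. Their summed implied means were 8582 normalized counts in knockout cells and 2347 in control cells, which is 0.0126% of all normalized counts in knockout and 0.00329% in control. Of 8 endothelial markers 5 were analysed, with 3 higher and 1 lower. The neutrophil, dendritic cell and T and NK cell lists had 0 calls by DESeq2 among 3, 4 and 3 tested genes, and 0 at an unadjusted p under 0.05. Of their 10, 8 and 9 listed markers, 5, 3 and 6 were absent from the deposited comparison. The B cell list had 1 called higher of 3 tested and the mast cell list 1 of 2, summing to 1753 and 66.0 normalized counts in knockout cells, against 538 and 27.6 in control cells. In bulk RNA, fewer cells of a type and less RNA per cell cannot be told apart.

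**Figure D2:**
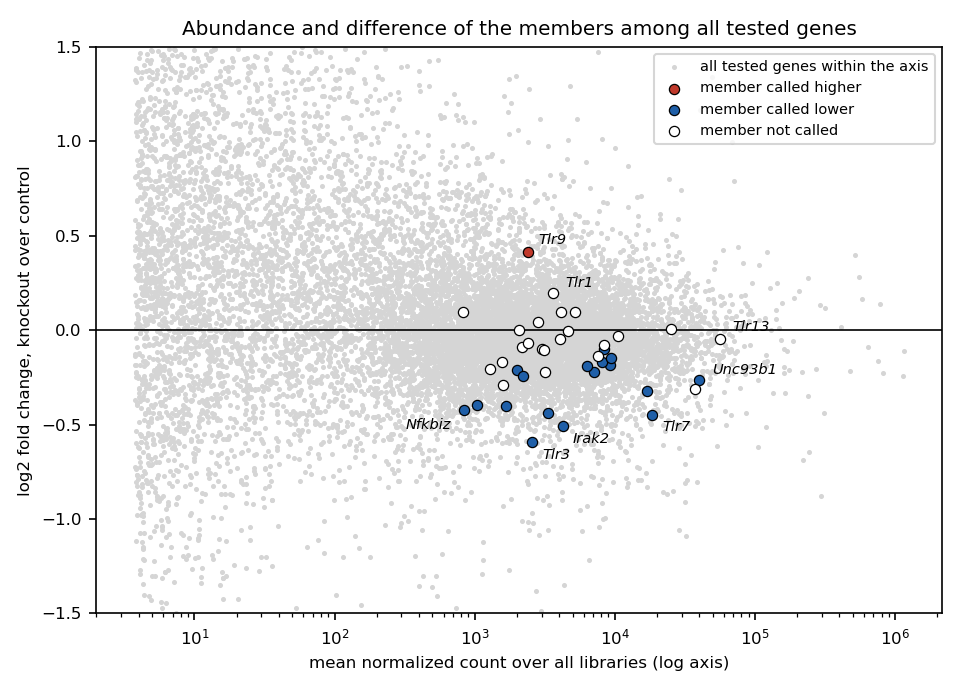
Mean normalized count over all libraries (x, log axis) against the log2 fold change of knockout over control (y) for the members, on all tested genes whose fold change lies within the axis (grey). The members sit among abundant genes, from 826 (Nfkbie) to 55865 (Tlr13) normalized counts, and most lie below 0.

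Per kb of transcript, Tlr13, Tlr8 and Tlr7, endosomal receptors for RNA, were the most abundant of the 9 Toll-like receptors among the members. Tlr3, also an endosomal receptor for RNA, was among the least abundant. Tlr13, which in mice binds bacterial ribosomal RNA, stood at 13527 normalized counts per kb in knockout cells and 13992 in control cells. Tlr8 followed with 7405 per kb in knockout and 7362 in control, and Tlr7, a receptor for single-stranded RNA, with 4020 per kb in knockout and 5481 in control. Tlr4, Tlr1 and Tlr2 followed, and Tlr2 stood below Tlr1 in knockout cells and above it in control cells. The lowest levels were those of Tlr9, Tlr6 and Tlr3, whose order also differed between the groups. Tlr9 was at 786 per kb in knockout and 591 in control, and Tlr6 at 559 per kb in knockout and 558 in control. Tlr3 was the lowest of the 9 in knockout cells at 466 per kb, against 702 per kb in control cells, where it lay above Tlr9 and Tlr6. Because values per library were not used, the order of such neighbours has no error. Cd14 was the most abundant member per kb, at 20459 per kb in knockout and 25388 in control.

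**Figure D3:**
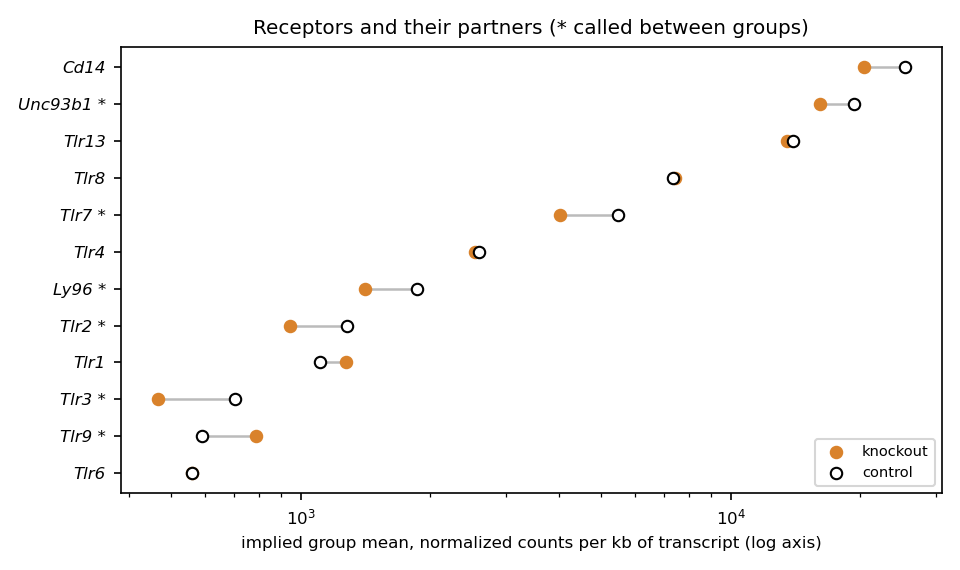
Implied group means of the receptors and their partners in normalized counts per kb of the longest coding transcript (x, log axis), with knockout filled and control open. The asterisk marks genes called between the groups. Of these, Tlr3, Tlr7, Tlr2, Ly96 and Unc93b1 have knockout left of control and Tlr9 right of it. Among genes not called, Cd14, Tlr13 and Tlr4 also have knockout left of control, and Tlr1, Tlr8 and Tlr6 right of it.

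Of the 4 surface receptors among the members, Tlr2 alone was called. Outside the members, Tlr5, another Toll-like receptor gene, was called higher at 2.64 (SE 0.79, DESeq2 adjusted p = 0.00689, per the authors' deposited table). Its mean was low, at 5.65 normalized counts, and it was picked with its value known. Tlr2 encodes the receptor for bacterial lipoproteins (chromosome 3, 83836272 to 83841767, minus strand, mm10). It had an implied mean of 2853 normalized counts in knockout cells and 3869 in control cells. On the log2 scale this is -0.44 (SE 0.13, adjusted p = 0.00637, from DESeq2 in the authors' deposited table), and it fell by 26.3% on the linear scale. The partners with which the TLR2 protein pairs did not pass the test. Tlr1 was at 0.20 (SE 0.18) and Tlr6 at 0.0023 (SE 0.06, per the authors' deposited table). Tlr1 and Tlr6 are neighbouring paralogs on chromosome 5. Of the 31-base words of the Tlr1 transcript 20.1% occur in other genes, chiefly Tlr6, so reads may have been shared between Tlr1 and Tlr6. Tlr4, the receptor for lipopolysaccharide, had an implied mean of 10365 normalized counts in knockout cells and 10572 in control cells. Its log2 fold change of -0.03 (SE 0.15, per the authors' deposited table) has a 95% interval from -0.32 to 0.26.

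Of the 3 co-receptors and chaperones of the receptors 2 were called lower. The shares called lower were 11.7% over all tested genes and 17.1% over those with a mean of at least 500. Ly96 encodes MD-2, the protein that holds lipopolysaccharide in the TLR4 complex (chromosome 1, 16688051 to 16709611, plus strand). Its implied mean was 894 normalized counts in knockout cells and 1178 in control cells, or -0.40 on the log2 scale (SE 0.11, DESeq2 adjusted p = 0.00451, the authors' deposited table). Unc93b1 encodes the chaperone that carries the endosomal receptors out of the endoplasmic reticulum (chromosome 19, 3935186 to 3949340, plus strand). It had 36509 normalized counts in knockout cells and 43860 in control cells, or -0.26 on the log2 scale (SE 0.06, DESeq2 adjusted p = 0.000406, the authors' deposited table). Cd14, which hands lipopolysaccharide to MD-2, had 33574 normalized counts in knockout cells and 41662 in control cells. Its log2 fold change of -0.31 was larger than that of Unc93b1, but its SE of 0.17 was also larger and it missed the threshold (DESeq2 adjusted p = 0.163, per the authors' deposited table).

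Of the 5 endosomal receptors 2 were called lower and 1 higher. All tested genes had 11.7% called lower and 11.3% higher, and those with a mean of at least 500 had 17.1% and 8.38%. Tlr3, the receptor for double-stranded RNA, showed the largest fall of all members, with 2053 normalized counts in knockout cells and 3095 in control cells. Its difference on the log2 scale, -0.59, had an SE of 0.17 and an adjusted p = 0.00406 (DESeq2, the authors' deposited table), and it lies at chromosome 8, 45395665 to 45411080 (minus strand). Tlr7 had 15664 normalized counts in knockout cells and 21360.0 in control cells, and lies on chromosome X, 167304929 to 167330558 (minus strand). The authors' deposited table puts it at log2 -0.45 (SE 0.09, DESeq2 adjusted p = 4.85e-05). Tlr8, its neighbour on chromosome X, was at 0.0084 (SE 0.11, 95% interval -0.21 to 0.23, per the authors' deposited table). The Tlr7 and Tlr8 intervals do not overlap, and the difference between the genes was not tested.

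Tlr9, the receptor for unmethylated CpG DNA, was the 1 member called higher. It had 2735 normalized counts in knockout cells and 2055 in control cells, and lies at chromosome 9, 106222598 to 106226883 (plus strand). On the log2 scale this is 0.41 (SE 0.10, adjusted p = 0.000325, from DESeq2 in the authors' deposited table), a rise of 33.1%. Tlr9 remained called as higher under each alternative scaling and filter and at an adjusted p under 0.01, and lost its call with the t distribution. Tlr13 was at -0.05 (SE 0.12, 95% interval -0.28 to 0.18, per the authors' deposited table).

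Of the 4 adaptors 3 were called lower, each by a small amount. Lower calls made up 11.7% of all tested genes and 17.1% of those with a mean of at least 500. Myd88 encodes the adaptor shared by most Toll-like receptors and the interleukin 1 receptor family. It had 6547 normalized counts in knockout cells and 7629 in control cells, or -0.22 on the log2 scale (SE 0.09, DESeq2 adjusted p = 0.0496, the authors' deposited table). Tirap, which bridges TLR2 and TLR4 to MyD88, was at -0.21 (SE 0.07, DESeq2 adjusted p = 0.0247, per the authors' deposited table). Ticam1, which encodes TRIF, the adaptor of TLR3, had 2017 normalized counts in knockout cells and 2386 in control cells. Its difference on the log2 scale, -0.24, had an SE of 0.09 and an adjusted p = 0.0326 (DESeq2, the authors' deposited table). Ticam2, the bridge between TLR4 and TRIF, was at -0.10 (SE 0.12, per the authors' deposited table), and 19.5% of its 31-base words are shared with other genes, chiefly its neighbour Tmed7. None of the 3 adaptor calls held with the alternative centring.

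The IRAK family held the member with the smallest adjusted p. Irak3 encodes IRAK-M, a family member with little kinase activity that restrains signalling in macrophages (chromosome 10, 120141648 to 120202130, minus strand). It had 1446 normalized counts in knockout cells and 1911 in control cells. The authors' deposited table puts it at log2 -0.40 (SE 0.07, DESeq2 adjusted p = 3.89e-08), and its call held under each of the 6 alternatives. Exons of Tmbim4 and of Gm47009 on the opposite strand overlap those of Irak3, and no source used here says whether counting used strand. Irak2, a kinase that sustains signalling after IRAK1, had 3501 normalized counts in knockout cells and 4981 in control cells. On the log2 scale this is -0.51 (SE 0.16, adjusted p = 0.00982, from DESeq2 in the authors' deposited table), and 11.3% of its 31-base words are shared with other genes.

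Irak1, the kinase that MyD88 recruits through IRAK4, passed narrowly at -0.18 (SE 0.07, DESeq2 adjusted p = 0.0480, per the authors' deposited table). Irak4, the first kinase of the complex, was at -0.05 (SE 0.06, 95% interval -0.17 to 0.08, per the authors' deposited table). The ubiquitin ligase genes gave no call, with Traf6 at 0.05 (SE 0.07) and Traf3 at -0.09 (SE 0.07, per the authors' deposited table). In the TAK1 complex, the kinase gene Map3k7 was at -0.0046 (SE 0.06) and its activator Tab1 at -0.20 (SE 0.08, DESeq2 adjusted p = 0.0537, per the authors' deposited table). Tollip, an inhibitor of IRAK activation, was at -0.14 (SE 0.09, per the authors' deposited table).

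Of the IKK family, Ikbkb, the main kinase of the IkB inhibitors, had 7633 normalized counts in knockout cells and 8589 in control cells. Its difference on the log2 scale, -0.17, had an SE of 0.06 and an adjusted p = 0.0361 (DESeq2, the authors' deposited table). The regulatory subunit NEMO, encoded by Ikbkg, was at 0.10 (SE 0.06, DESeq2 adjusted p = 0.252, per the authors' deposited table). Chuk, which encodes the other kinase subunit, IKK-alpha, was higher, with 5172 normalized counts in knockout cells and 4236 in control cells. The authors' deposited table puts it at log2 0.29 (SE 0.06, DESeq2 adjusted p = 3.28e-05), so the genes for the 2 kinase subunits were called in opposite directions. Neither call held with the t distribution. That of Ikbkb was also lost with the alternative centring and at an adjusted p under 0.01. Of the IKK-related kinases of the interferon branch, Tbk1 was at -0.15 (SE 0.06, DESeq2 adjusted p = 0.0388) and Ikbke at -0.08 (SE 0.09, per the authors' deposited table).

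Of the 5 NF-kB subunits 2 were called lower, both by under 1.25-fold. Lower calls were 11.7% of all tested genes and 17.1% of those with a mean of at least 500. Rela encodes p65, the main transactivating subunit, and had 5910 normalized counts in knockout cells and 6746 in control cells. On the log2 scale this is -0.19 (SE 0.06, adjusted p = 0.0105, from DESeq2 in the authors' deposited table). Nfkb1, the precursor of p50, was called at -0.10, the smallest change among the called members, with the smallest SE of all (0.04, DESeq2 adjusted p = 0.0343, per the authors' deposited table). It had 8043 normalized counts in knockout cells and 8603 in control cells, so it fell by 6.52%. Rel, Relb and Nfkb2, the remaining subunits, were at -0.10 (SE 0.09), -0.17 (SE 0.09) and 0.10 (SE 0.07, per the authors' deposited table), and none passed the test.

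Of the 4 IkB family genes among the members, Nfkbiz alone was called. It encodes the nuclear IkB-zeta, which NF-kB induces and which acts on a set of secondary response genes (chromosome 16, 55811375 to 55838899, minus strand). It had 713 normalized counts in knockout cells and 955 in control cells, or -0.42 on the log2 scale (SE 0.11, DESeq2 adjusted p = 0.00178, the authors' deposited table). Nfkbia, the IkB-alpha gene and a classical feedback target of NF-kB, had 2939 normalized counts in knockout cells and 3423 in control cells. Its log2 fold change of -0.22 had the widest interval of these IkB family genes, from -0.56 to 0.12 (DESeq2 adjusted p = 0.378), in the authors' deposited table. Nfkbib was at -0.29 (SE 0.12, DESeq2 adjusted p = 0.0646) and Nfkbie at 0.10 (SE 0.06, per the authors' deposited table). Of the interferon regulatory factors, Irf5, which acts downstream of MyD88, had 15170 normalized counts in knockout cells and 18937 in control cells, at -0.32 (SE 0.12, DESeq2 adjusted p = 0.0347, per the authors' deposited table). Irf3, the target of TBK1, was at -0.07 (SE 0.11, per the authors' deposited table).

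For most members that were not called, the data limit how far they can have moved. Of these 22, 21 had a 95% interval within 1.5-fold in either direction, and 15 an interval within 1.25-fold. Cd14 was the exception at 1.5-fold, with an interval from -0.64 to 0.01. These intervals take the authors' SE with a normal distribution and are not adjusted for the number of genes. The SE of a member was compared with the median SE of the 200 tested genes nearest to it in mean normalized count. The median ratio was 1.10, and 6 members exceeded 2: Tlr1 (2.39), Nfkbia (2.23), Cd14 (2.22), Tlr3 (2.19), Irak2 (2.19) and Tlr4 (2.01). At the other end Nfkb1 stood at 0.491. The members with a high ratio include receptors, a co-receptor and inducible regulators, but genes of like kind also lay low. The receptor Tlr6 stood at 0.701 and the IkB family gene Nfkbie at 0.618, among 17 members below 1.

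Genes around the members were taken from 3 lists written from general knowledge of the pathway. Of 58 other pathway genes 6 were called higher (10.3%) and 10 lower (17.2%), with a median log2 fold change of -0.09. Over all tested genes 11.3% were called higher and 11.7% lower, and over those with a mean of at least 500 8.38% and 17.1%. The 4 with the smallest adjusted p were Chuk, Lbp, Tab3 and Slc15a4. Lbp, the lipopolysaccharide-binding protein gene, was at 1.26 (SE 0.26) and Tab3, an adaptor of TAK1, at 0.41 (SE 0.09, per the authors' deposited table). Slc15a4, a transporter of endolysosomes that TLR7 and TLR9 signalling needs, was at -0.26 (SE 0.06, per the authors' deposited table). Ly86, whose product MD-1 pairs with the TLR4 homologue CD180, was lower at -0.50 (SE 0.13, DESeq2 adjusted p = 0.00106, per the authors' deposited table). The naming rule does not cover Ly86, which was picked with its value known.

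The MAP kinase branch, which TAK1 also activates, had 4 genes called higher (15.4%) and 5 lower (19.2%) of 26, with a median of -0.08. The shares were 11.3% and 11.7% over all tested genes, and 8.38% and 17.1% over those with a mean of at least 500. Mapk3, which encodes ERK1, was at -0.45 (SE 0.08) and Map2k1, the kinase above it, at -0.23 (SE 0.05, per the authors' deposited table). Dusp5, a nuclear phosphatase of ERK, was higher at 1.16 (SE 0.24), while Junb, an AP-1 subunit, was at -0.58 (SE 0.14, per the authors' deposited table).

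Calls among NF-kB target genes went in both directions. Of 48 listed, 43 were tested, with 6 called higher (14%) and 7 lower (16.3%). The median was -0.19, and 30 of the 43 lay below 0 (69.8%). The shares below 0 were 50.7% of all tested genes, with a median of -0.0040, and 60.5% of those with a mean of at least 500, with a median of -0.05. Among all tested genes 11.3% were called higher and 11.7% lower, and among those with a mean of at least 500 8.38% and 17.1%. Il10, an anti-inflammatory cytokine, rose to 330.4 normalized counts in knockout cells, against 180.1 in control cells, at a log2 fold change of 0.87 (SE 0.19, per the authors' deposited table). Ptx3, a soluble pattern recognition protein, was at 2.00 (SE 0.47) from a low mean of 13.5 normalized counts, and Marcksl1, an actin-binding protein gene, at 1.12 (SE 0.27, per the authors' deposited table). Bcl2a1d, a survival gene, was at -0.51 (SE 0.14, per the authors' deposited table). The cytokine gene Tnf was at -0.09 (SE 0.13, DESeq2 adjusted p = 0.664) and Il1b at 0.46 (SE 0.19, DESeq2 adjusted p = 0.0672, per the authors' deposited table). The naming rule does not cover these either, and both were picked with their values known. The target list shares 5 genes with the other pathway genes: Bcl3, Nfkbid, Traf1 and the feedback inhibitors Tnip1 and Tnfaip3. Bcl3, Nfkbid and Tnip1 were called lower, and these calls are counted in both lists. The 5 are named for the overlap alone.

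**Figure D4:**
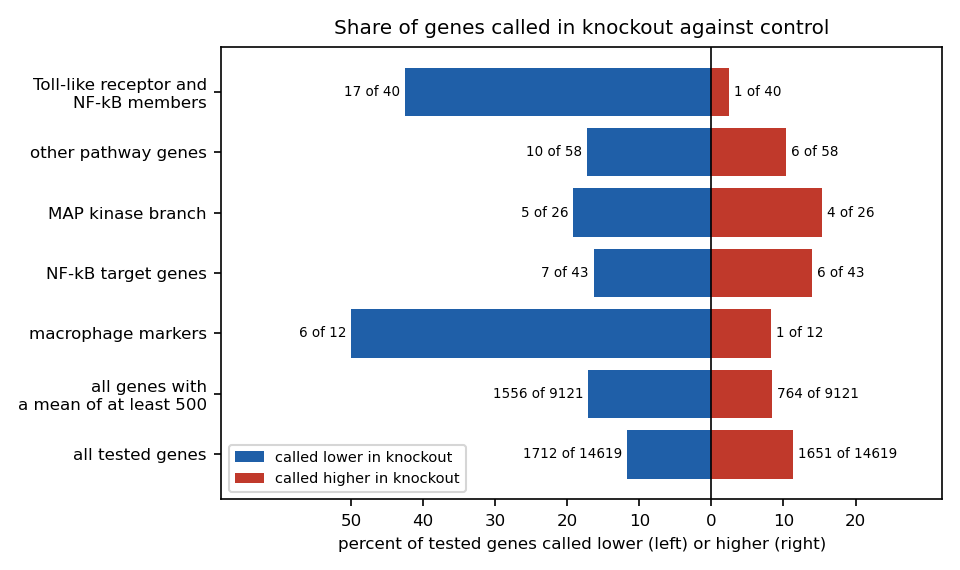
Percent of tested genes called lower (left) or higher (right) in knockout for the members, the 3 lists around them, macrophage markers and all genes, with the counts beside each bar. The members had 17 of 40 called lower and 1 of 40 higher, while the 3 other lists had 16.3% to 19.2% called lower. The macrophage markers had 50% (6 of 12) lower and 8.33% higher. All tested genes had 11.7% called lower, and those with a mean of at least 500 had 17.1%.

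Seed matches of the floxed miRNAs were searched in 3' UTRs, taking the longest per gene in GENCODE M21 (GRCm38). The letters searched, on the transcript strand, were AATGTGA for miR-23, ACTGTGA for miR-27 and CTGAGCC for miR-24. Of the 40 members 14 held at least 1 match (35%), against 40.8% of 13094 tested genes with a 3' UTR. By family, 1 member held a miR-23 match (2.5%, against 16.7% of all), 6 a miR-27 match (15%, against 17.4%) and 8 a miR-24 match (20%, against 19.2%). Of the 14 members with a match 0 were called higher and 3 lower (21.4%), with a median log2 fold change of -0.09. Over all tested genes with a match 15.8% were called higher and 10.1% lower, with a median of 0.04. Of the 26 members without a match 1 was called higher (3.85%) and 14 lower (53.8%), with a median of -0.18. Over all tested genes without a match 9.5% were called higher and 14.4% lower, with a median of -0.03. Genes with a match also had longer 3' UTRs. Their median length was 2093 bases over all tested genes and 1476 in members, against 714 without a match in either set. The part of UTR length in these differences was not tested. A match shows the letters only, and binding was not measured.

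The matches in the 3 called members are shown with their surroundings because they are the letters counted above. Capitals mark the match, with 1 further base where an A follows, which makes an 8-base match. Irak1 holds a pair of miR-23 matches in exon 14 on chromosome X, at 74015279 to 74015285 and at 74015223 to 74015229 (minus strand, mm10). Tirap holds a miR-27 match in exon 7 on chromosome 9, at 35186601 to 35186607 (minus strand). Ticam1 holds a miR-27 match in exon 2 on chromosome 17, at 56269561 to 56269567 (minus strand). Nfkb2, Nfkbib and Traf3 each hold 2 matches and were not called, and the stronger match of Traf3 is shown for comparison, at 111265211 to 111265217 on chromosome 12 (exon 10, plus strand).
Irak1, miR-23, first: gctgttctcagAATGTGAAcacagacagg
Irak1, miR-23, second: ataaggcaggcAATGTGAggccagcattt
Tirap, miR-27: ctttgtgttgaACTGTGAggaaccggttc
Ticam1, miR-27: aaacttcattcACTGTGAcacatgctgtt
Traf3, miR-27: ggatgggtgagACTGTGAAtgagtgtaac

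**Figure D5:**
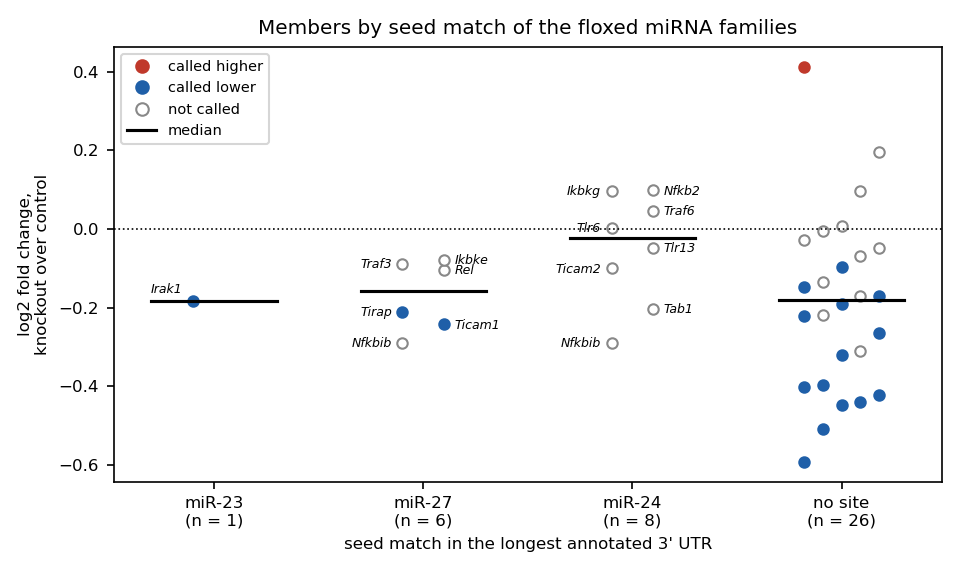
Log2 fold change of knockout over control (y) of the members by seed match in the 3' UTR (x), with the median as a black line. Nfkbib appears under both miR-27 and miR-24, and the 1 member called higher, Tlr9, is among the 26 without a match.

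Promoters were searched because many members moved the same way and several are NF-kB targets. The 250 bases before each RefSeq start site (GRCm38.p6) were available for 29 of the 40 members. For some members, such as Tlr2 and Tlr3, that start site lies inside the gene as annotated in GENCODE M21. The kappaB consensus, on both strands, occurred in 9 of the 29 (31%), against 10.4% of 10679 tested genes. The 9 were Tlr2, Tlr3, Irak1, Traf3, Map3k7, Nfkb2, Rel, Nfkbia and Nfkbie. Of these, Tlr2, Tlr3 and Irak1 were called lower and the other 6 were not called, so 3 of the 11 called-lower members with a promoter held it. An interferon-stimulated response element core, GAAA, any 2 bases and GAAA again on either strand, occurred in Tlr6 and Myd88, which is 6.9% of members against 3.47% of tested genes. A match is not a bound site.

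The promoter of Tlr2, which was called lower, is shown beside that of Nfkbia, which was not called. Both are printed in the direction of transcription with the kappaB match in capitals, overlapping matches being shown as 1. The match begins 173 bases before the RefSeq start site of Tlr2 (chr3:83841609-83841858, minus strand) and 29 bases before that of Nfkbia (chr12:55492648-55492897, minus strand). In GENCODE M21, Tlr2 starts further upstream, at 83841767, so part of its printed bases lies inside that gene model. The Nfkbia start is at 55492647, next to its printed bases. The 2 distances are therefore not from like start sites.
Tlr2: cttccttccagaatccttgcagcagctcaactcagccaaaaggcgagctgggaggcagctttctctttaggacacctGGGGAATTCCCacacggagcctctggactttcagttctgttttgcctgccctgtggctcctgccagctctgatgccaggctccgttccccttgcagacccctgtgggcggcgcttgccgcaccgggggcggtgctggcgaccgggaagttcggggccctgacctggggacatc
Nfkbia: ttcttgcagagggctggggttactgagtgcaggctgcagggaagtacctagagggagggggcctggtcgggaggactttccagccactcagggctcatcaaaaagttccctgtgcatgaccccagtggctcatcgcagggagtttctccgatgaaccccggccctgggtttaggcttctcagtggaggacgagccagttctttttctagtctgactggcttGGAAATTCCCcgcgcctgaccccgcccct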

How the data were processed

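The submitters' processing notes list Salmon, DESeq2, cutadapt, FastQC and the build mm10, without versions, settings or roles. Per the file headers, the deposited comparison gives each gene the authors' mean normalized count (a signal averaged over all 8 libraries), log2 fold change with its SE, Wald score, p-value and adjusted p-value. The score equals the fold change over its SE to within 1.1e-07. Of 15853 genes, 14619 have an adjusted p-value, which a Benjamini-Hochberg adjustment recomputed to within 5.7e-09.

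The 8 columns of values per library are numbered 1 to 8, while the labels number libraries 1 to 4 within each genotype, so no column could be tied to 1 sample and they were left out. Depth per library is therefore unknown here, no interval for counting error is given, and the planned limma fits, refits without single libraries and replicate block were not run. Calls are the authors' own.

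The members and lists were chosen with earlier results of these data known. All 40 members are described; other lists name at most 4 genes by smallest adjusted p, with exceptions stated. Levels per kb use the longest coding transcript in GENCODE M21, the annotation also used for 3' UTRs and positions. Opposite-strand exons overlap 12 members (6 of the 18 called: Tlr3, Myd88, Tirap, Irak2, Irak3 and Irf5), so their reads may not be separated. Of the 40, 29 share no 31-base word with another gene. Alternatives were other filters, centrings, a t distribution and a stricter threshold. Python 3.11.15, pandas 2.3.3, numpy 2.4.6 and scipy 1.17.1 were used. The calling steps and their alternatives were run on fold changes simulated with the authors' SE. That simulation held no libraries and did not cover the sequence searches.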

Additional observations from a re-analysis of the deposited data

How the results depend on the processing

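Of the 18 members called, Irak3 was called under each of the 6 alternatives run. With fold changes centred on summed group means without Lyz2, 8 members were called lower, and at an adjusted p under 0.01 also 8, in place of 17. Of all tested genes 7.16% were called lower with that centring and 6.9% at the stricter threshold, against 11.7% as deposited. With the t distribution 1 member was called lower and 0 higher by the recomputed adjusted p (18 and 1 at an unadjusted p under 0.05). It gave 0 higher and 0 lower among other pathway genes (6 and 12 unadjusted), 0 higher and 1 lower in the MAP kinase branch (4 and 5 unadjusted), and 0 and 0 among NF-kB target genes (7 and 7 unadjusted). For these unadjusted counts the share over all tested genes was not computed, so they have no background to be read against. The stricter threshold left 3 NF-kB target genes higher and 4 lower, in place of 6 and 7. Over all genes the t distribution called 221 higher (1.51%) and 127 lower (0.869%). The calls of Myd88 and Irak1 were also lost without a filter on low values and with centring on the median of tested genes, and Tab1 gained a call at a mean of at least 50. Centring on summed group means adds the same 0.05 to every log2 fold change, which turns any value just below 0, as in other listed genes too. Among the genes followed singly this was so for Tlr4 (0.024), Tlr13 (0.0037), Irak4 (0.0042), Map3k7 (0.048) and S100a8 (0.030). No paired analysis was possible because no library's values could be tied to a label, and leaving out single libraries was not run for that reason.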
